A study of Mus musculus with 18 samples.

Results

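The brain tissue around melanoma metastases was compared with the brain tissue around breast cancer metastases in mice, gene by gene, for every gene that the annotation places on neither X nor Y. The melanoma model used the mouse line B16-F10-BrM4 and the breast model the mouse line EO771-BrM3. Wild-type animals received 40000 cells and were killed 10 days later, and the area around the tumours was cut out of 6 brains per model. Each library came from 1 brain, so there were 12 libraries, 6 of melanoma (numbers 1 to 6) and 6 of breast (numbers 14 to 19), out of 18 in the series. The other 6 libraries, from a lung cancer model, entered the scaling, the filter on low counts and the estimate of the spread, but not the contrast. The labels give no mouse strain, age, sex or injection route. Each model is 1 cell line, so a difference between tumour types and a difference between these lines cannot be told apart. No uninjected brain was used here, so a gene that is higher in one model is by the same values lower in the other. Of the 55416 genes in the count table, 48118 lay on the autosomes or the mitochondrial chromosome, and 16509 of these had enough reads to be tested.

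A metastasis growing in the brain meets astrocytes, microglia, blood vessels and neurons. Astrocytes near injury enlarge and make the filament protein Gfap. Microglia, the resident macrophages, lower their resting genes and raise lysosomal, lipid and antigen-handling genes. Interferons and NF-kB signalling drive chemokines, adhesion molecules and MHC genes, which draw in and engage blood leukocytes. B16 lines are pigment cell tumours known for low MHC class I, and EO771 is a mammary carcinoma line. Fewer cells of a type and less RNA per cell cannot be told apart in bulk tissue, whichever gene group is described.

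The melanoma libraries held 10669355 to 13396710 counted reads and the breast libraries 7366250 to 13544054, with the 2 shallowest being breast 18 and 19. All levels are given as CPM, the depth-scaled count in which library sizes carry their TMM factor, and 3 values in a row are the lowest, the median and the highest of the 6 libraries of a model. Melanoma 3, breast 18 and breast 19 were poor in long transcripts: the slope of expression on log transcript length was -0.261, -0.279 and -0.223 in them, against -0.0125 to 0.192 in the other 9. Melanoma 1 stood apart in immune genes. Calls without these libraries are given for some genes and lists only, so a list count with no such note may also change. The first principal component of the 12 libraries held 66.3% of the variance and separated the models. The defining markers of brain tissue were read in all 12 libraries, with Snap25, a synaptic fusion protein, at 1419 to 2492 CPM in melanoma and 1230.5 to 1632 in breast libraries, and Mbp, a myelin protein, at 1810.5 to 2534 and 1554 to 3675. Tumour RNA was present in the tissue labelled as lying around the tumour: the 16 tested melanocyte genes took 0.441 to 2.58% of reads in the melanoma libraries and 0.0106 to 0.0174% in the breast libraries.

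By edgeR's quasi-likelihood test with Benjamini-Hochberg adjustment at 0.05, 4753 of the 16509 genes (28.8%) differed between the models. Of these, 1611 (9.76% of genes tested) were higher in melanoma and 3142 (19.03%) were lower. The lower genes also differed by more: their median log2 fold change was -1.19, against 0.64 for the higher genes, and 1004 of them were lower by over 4-fold, against 158 higher by over 4-fold. The median over all genes tested was 0.04. In 2796 genes (16.9%) the 6 and 6 libraries did not overlap, with melanoma above breast in 814 and below it in 1982. Without the 3 libraries poor in long transcripts, 2495 of 16729 genes (14.9%) were higher and 3206 (19.16%) lower, and 4384 of the 4753 calls were made again in the same direction. Leaving out melanoma 3 alone gave 3862 higher and 3881 lower genes. Of 983 tested genes in 77 lists of pathways and cell type markers, 81 were higher in melanoma and 388 lower. The lists are described by these counts and by the median log2 fold change of their tested members, always as melanoma minus breast. Each count is to be read beside the shares of all genes tested, 9.76% higher, 19.03% lower and 16.9% without overlap. A list count near these shares says nothing particular of the list. In fits that leave libraries out these shares change as well.

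**Figure D1:**
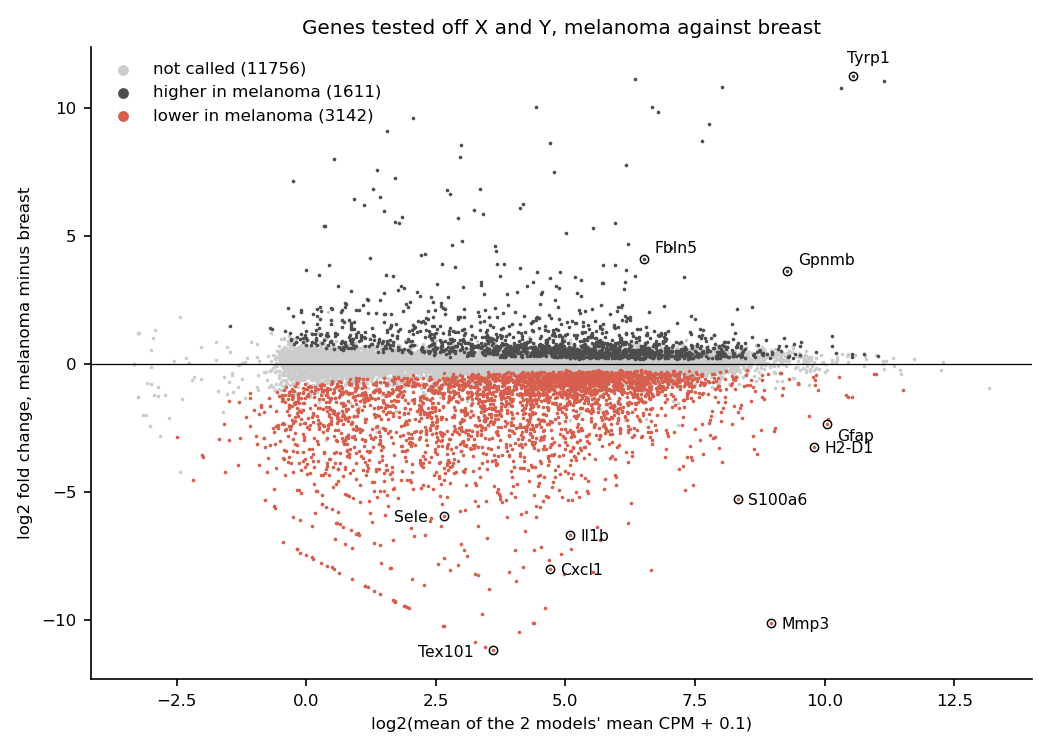
Log2 fold change, melanoma minus breast, against the log2 of the mean CPM (plus 0.1) for the 16509 genes tested off X and Y, 1 point per gene. Dark points are the 1611 genes higher in melanoma and red points the 3142 lower. The median log2 fold change is -1.19 for the red points and 0.64 for the dark points.

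The genes that stood highest in melanoma were those of the pigment cell lineage, and 14 of 16 tested members were higher (median 9.06). Tyrp1, an enzyme of melanin synthesis, was read at 948, 3078 and 5418 CPM in the melanoma libraries and 0.374, 1.15 and 1.97 in the breast libraries (log2 fold change 11.28 ± 0.57, adjusted p = 5.4e-11). Pmel, the scaffold protein of the melanosome, was at 809.7, 2366 and 4774 and 0.449, 1.58 and 2.18 CPM (log2 fold change 10.81 ± 0.57, adjusted p = 9.3e-11). Dct, a further melanin enzyme, was at 1579, 3896 and 10678 and 0.299, 2.34 and 3.31 CPM (log2 fold change 11.07 ± 0.63, adjusted p = 2.1e-10). The 2 groups were far apart for all 3, and the melanoma libraries differed among themselves, with libraries 1 to 3 above 4 to 6. The summed level of the list was 17320, 15450, 25850, 8338, 5377 and 4405 CPM in melanoma 1 to 6. The lineage factors followed the enzymes: Mitf, the master regulator of melanocytes, was at 71.5 to 481 CPM in melanoma and 9.09 to 12.2 in breast libraries (log2 fold change 4.57), and Pax3, which acts upstream of Mitf, was at 19.07 to 81.4 and 0.137 to 0.394 CPM (7.53). In all, 36 genes, Pax3 and Mitf among them, were chosen after their values had been seen.

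Mitf binds a short element known as the M-box in the promoters of pigment genes. The letters TCATGTG, which contain the E-box core CATGTG, were searched on both strands of the 250 bases before each gene start in the RefSeq promoter table (build GRCm38.p6). They stood in 1068 of 32817 promoters (3.25%) and in 6 of the 11 tested pigment genes with an entry. Tspan10, a melanosome tetraspanin, and Trpm1, a cation channel of melanocytes, were the 2 of these 6 with the smallest p. The 150 bases before their starts are shown with the matching letters, read on either strand, in capitals, Tspan10 from chr11:120442481-120442630 and Trpm1 from chr7:64153685-64153834, both on the plus strand.
Tspan10: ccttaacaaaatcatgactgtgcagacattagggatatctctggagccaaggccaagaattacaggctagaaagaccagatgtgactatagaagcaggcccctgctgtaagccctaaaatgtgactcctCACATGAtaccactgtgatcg
Trpm1: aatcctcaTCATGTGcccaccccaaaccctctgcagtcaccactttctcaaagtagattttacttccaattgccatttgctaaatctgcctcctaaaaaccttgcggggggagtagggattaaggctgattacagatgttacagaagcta
Tspan10 was at 78.2, 166 and 261 CPM in melanoma and 0, 0.0788 and 0.14 in breast libraries (log2 fold change 11.15 ± 0.52, adjusted p = 2.4e-11), and Trpm1 at 156, 411 and 816 and 0.409, 0.648 and 0.839 CPM (log2 fold change 9.38 ± 0.47, adjusted p = 5.4e-11). A match describes the letters only.

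Some epithelial and mammary genes were higher in the breast libraries, while most of those tested were not called. Krt8, a keratin of simple epithelia, was at 0.47, 0.757 and 1.4 CPM in melanoma and 58.7, 100 and 161 in breast libraries (log2 fold change -6.85 ± 0.44, adjusted p = 8.8e-10), whereas its partner Krt18 was at 1.3, 1.91 and 2.81 and 0.946, 2.08 and 3.52 CPM, with the groups overlapping (adjusted p = 0.721). The epithelial list had 2 of 6 tested members lower in melanoma (Krt8 and Epcam, list median -0.26), with 7 more under the filter on low counts. The mammary list had 4 of 9 lower (list median -0.10), with 5 more under the filter, Wap and Csn2 among them. Its growth factor Areg was at 0 to 0.248 and 5.75 to 13.1 CPM (log2 fold change -6.38), and the receptor gene Erbb2 at 5.04 to 8.97 and 10.8 to 20.7 (-1.14). Neither member had overlapping groups.

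Among genes usually silent outside the germ line or the embryo, 4 picked for the size of their change were read in all 6 breast libraries and almost absent in melanoma. Tex101, a sperm surface protein gene, had 0 reads in the 6 melanoma libraries and 11.9, 24.8 and 39.4 CPM in the breast libraries (at least 542-fold higher in breast, taking 3 reads over the 6 libraries as the limit for 0). Dppa4, a chromatin protein gene of early embryos, also had 0 reads against 10.4, 18.3 and 31.9 CPM (at least 433-fold higher), and its partner Dppa2 0 reads against 3.54, 7.76 and 11.9 CPM (at least 168-fold higher). Morc1, which silences transposons in germ cells, was at 0, 0 and 0.185 CPM in melanoma, 4 reads in all, and 13.5, 18.6 and 26.3 in breast libraries (log2 fold change -8.18 ± 0.45, adjusted p = 1.3e-10). None of these had overlapping groups, and none belongs to the germline and pluripotency list. Of the 18 genes in that list 10 were under the filter on low counts, Nanog, Pou5f1 and Dppa3 among them, and of the 8 tested 4 were lower in melanoma and 1 was higher (Tdrkh, of the germ cell pathway that silences transposons, 0.98; 2 without the 3 libraries poor in long transcripts). The oncofetal list held members of both kinds: Hmga2, a chromatin protein of embryonic cells, was at 0.495 to 4.07 CPM in melanoma and 108 to 182 in breast libraries (log2 fold change -6.19), and Afp, the fetal albumin, at 0 to 0.392 and 36.8 to 120.1 (-8.18). Within the Igf2bp family of RNA-binding proteins, Igf2bp2 was lower in melanoma (-3.79), while Igf2bp3 (3.80) and Igf2bp1 (2.05) were higher.

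Growth signalling genes that differed were mostly high in the breast libraries, while the proliferation list did not separate the models. Fosl1, an AP-1 subunit induced by MAP kinase signalling, was at 0, 0.139 and 0.956 CPM in melanoma and 71.4, 88.6 and 122 in breast libraries (log2 fold change -8.11 ± 0.43, adjusted p = 1.0e-10). In the MAP kinase feedback list 5 of 13 were lower, Etv4 (-1.79) and Dusp5 (-2.39) among them, and Phlda1 was higher (0.61; adjusted p = 0.0603 without melanoma 1, 0.0671 without melanoma 2, 0.0619 without breast 15 and 0.0552 without breast 17). The ephrin receptor Epha2 (1.25 to 2.94 against 53.6 to 100.4 CPM, -5.20) and the membrane protease St14 (0.908 to 1.62 against 77.1 to 136, -6.36) had some of the smallest p of all genes. Of the mesenchymal transcription factors and markers, 6 of 11 were lower in melanoma, including Twist1 (0.368 to 1.21 against 23.1 to 60.7 CPM, -5.96) and Prrx1 (3.45 to 9.55 against 40.9 to 72.3, -3.04). Without the 3 libraries poor in long transcripts, 5 of this list were lower and 1 was higher. Among 23 cell cycle genes, 1 was higher (Mcm2, a replication helicase subunit, 1.09) and 1 lower (Cdc20, an activator of mitotic exit, -1.32; 2 lower without melanoma 1). Mki67, a proliferation marker, was at 25.2, 54.2 and 129 CPM in melanoma and 24.2, 57.2 and 83.7 in breast libraries, with overlapping groups (adjusted p = 0.481). The summed cell cycle level of the melanoma libraries ran from 539 to 2531 CPM, wider than the 1218 to 1901 CPM of the breast libraries, and libraries 1 to 3 were above 4 to 6, as for the pigment genes.

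Most genes of the astrocyte reaction list were lower around melanoma, and resting astrocyte genes differed little. In the reactive list 19 of 26 tested members were lower in melanoma (median -2.21). Some members are counted in other lists too, such as Vim among the mesenchymal genes and Cd14 among the Toll-like receptor genes. Which cells made the RNA of this list, Lcn2 included, cannot be told in bulk tissue. Gfap was at 276, 339 and 449.6 CPM in melanoma and 1657, 1726 and 1915 in breast libraries (log2 fold change -2.34 ± 0.16, adjusted p = 2.0e-09). Serpina3n, a secreted protease inhibitor raised in reactive astrocytes, was at 20.8, 25.6 and 32.2 and 188, 310.3 and 439.6 CPM (log2 fold change -3.61 ± 0.23, adjusted p = 1.0e-09). Lcn2, an iron-carrier binding protein, was at 0.929, 2.3 and 3.71 and 24.4, 50 and 63.5 CPM (log2 fold change -4.39 ± 0.44, adjusted p = 2.6e-07). For all 3 the highest melanoma library lay below the lowest breast library. The 1 member that went the other way was Fbln5, a matrix protein gene, at 234, 206, 341, 108, 77.2 and 68.7 CPM in melanoma 1 to 6 and 6.81 to 13.2 in breast libraries (log2 fold change 4.11 ± 0.37, adjusted p = 7.4e-08), so that its melanoma values had the order seen for pigment genes, highest in library 3 and lowest in library 6. Of 17 resting astrocyte genes 4 were lower (median -0.09), near the 19.03% of all genes. Without melanoma 1, 2 were lower, and without the 3 libraries poor in long transcripts 2 were lower and 2 higher. The largest falls were those of the gap junction protein Gja1 (90.9 to 159.8 against 243 to 324 CPM, -1.13) and the water channel Aqp4 (64.4 to 168 against 184 to 259, -0.83). Stat3, a transcription factor of reactive astrocytes, was not called (54, 67.8 and 159 against 83.3, 131 and 151 CPM, adjusted p = 0.0907; 0.0019 without melanoma 1). Its target and inhibitor Socs3 was lower, at 3.88, 5.69 and 13.1 against 43.1, 66.3 and 78.8 CPM (log2 fold change -3.27 ± 0.38, adjusted p = 1.4e-06), as was the cytokine Lif (-3.38).

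Microglial genes were lower around melanoma in both the resting and the activated list. Of 20 disease-associated genes 17 were lower in melanoma (median -2.54). Trem2, a lipid-sensing receptor, was at 12.1, 14.2 and 17.5 CPM in melanoma and 46.1, 56.2 and 69.6 in breast libraries (log2 fold change -2.002 ± 0.16, adjusted p = 1.2e-08). Cd68, a lysosomal protein of macrophages, was at 8.62, 11 and 20.1 and 60.7, 85.5 and 97.4 CPM (log2 fold change -2.76 ± 0.22, adjusted p = 1.7e-08). Neither gene overlapped between the groups. Gpnmb, a glycoprotein of both melanosomes and activated macrophages, was the exception, at 2247, 1658, 1684, 729, 365 and 226 CPM in melanoma 1 to 6 and 66.6 to 111 in breast libraries (log2 fold change 3.64 ± 0.49, adjusted p = 9.0e-06). Of 13 resting microglia genes 9 were lower (median -1.14), such as Tmem119, a microglial surface protein (15.3 to 30.1 against 42.4 to 72.6 CPM, -1.32). P2ry12, the microglial ADP receptor, overlapped between the models (18.5, 27.2 and 39.6 against 32.3, 35.7 and 49.1 CPM, adjusted p = 0.124), and the sugar transporter Slc2a5 was higher in melanoma (9.33 to 21.2 against 3.64 to 7.17, 1.33). Slc2a5 was higher in melanoma libraries 1 to 3 than in 4 to 6, as for the pigment genes. The lysosomal protease list had the direction of most microglial genes, with 12 of 15 lower: Ctsb was at 745, 819 and 1096 and 1803, 2018 and 2605 CPM (log2 fold change -1.26 ± 0.14, adjusted p = 6.3e-07), one of the largest differences in level of all genes.

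**Figure D2:**
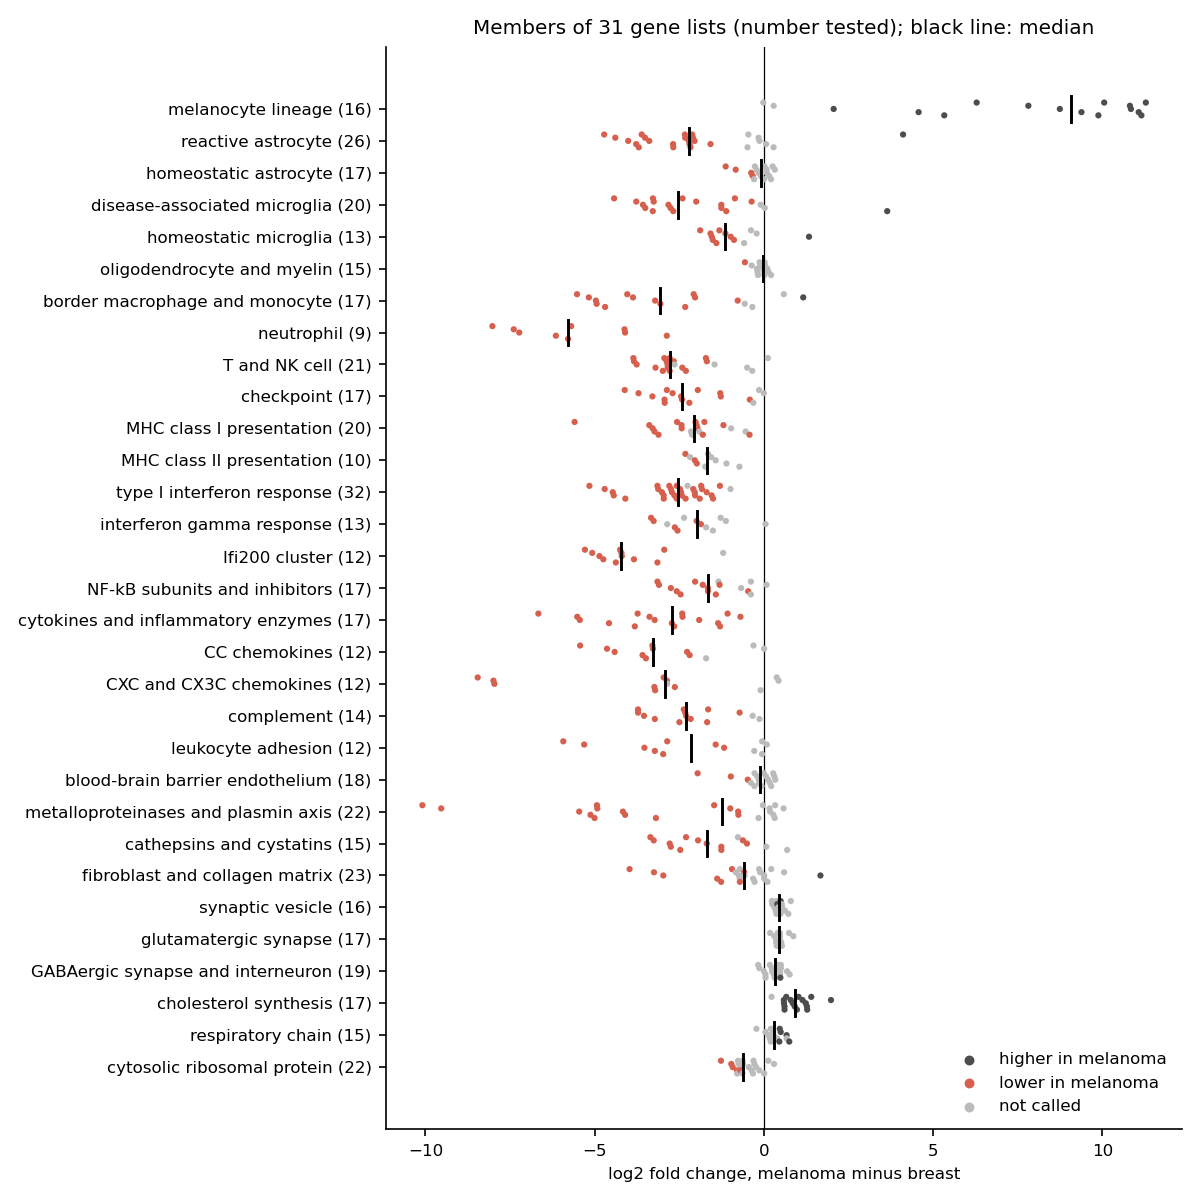
Log2 fold change, melanoma minus breast, of each tested member of 31 lists, 1 point per gene, with the number tested in brackets and the median as a black line. Dark and red points passed the test and grey points did not. The melanocyte median lies at 9.06, the neutrophil median at -5.79 and the myelin median at -0.03.

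Most blood leukocyte genes were lower in melanoma, with the lowest list median among neutrophil genes. All 9 of the 9 tested neutrophil genes were lower (median -5.79), against 19.03% of all genes, with 5 more under the filter on low counts. A gene near 0 in melanoma could pass that filter through another model alone, which favours lower calls in such a list. S100a8, a calcium-binding protein abundant in neutrophils, was at 0.0735, 0.258 and 0.705 CPM in melanoma and 20.1, 50.2 and 119 in breast libraries (log2 fold change -7.39 ± 0.94, adjusted p = 4.4e-06). Cxcr2, the receptor for neutrophil chemokines, had 3 reads in the 6 melanoma libraries and 9.28, 13.4 and 18.1 CPM in the breast libraries (ratio 326, 95% counting interval 111 to 1584). The groups were apart for both. In the list of border macrophages and monocytes 13 of 17 were lower (median -3.06), among them Ms4a7 (0.743 to 5.66 against 22.9 to 40.4 CPM, -4.04) and the platelet factor gene Pf4 (1.09 to 1.72 against 6.81 to 19.3, -3.21). The integrin Itga4 was higher (26.8 to 51.3 against 8.46 to 22.7, 1.16). All 4 tested red blood cell genes were lower as well, with Hbb-bs, a haemoglobin chain, at 53.7, 83.2 and 109 and 151, 322 and 627 CPM. The part of the blood content of the resections in these lists was not tested.

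T and NK cell genes were lower in melanoma in 16 of 21 (median -2.78), but both models were uneven. Cd8a, the co-receptor of killer T cells, was at 3.82, 0.156, 0, 0, 0 and 0 CPM in melanoma 1 to 6 and at 7.95, 8.24, 7.71, 0.394, 0.979 and 0.682 CPM in breast 14 to 19. Its groups overlapped and it was not called (adjusted p = 0.0572; 0.00060 without melanoma 1). Breast 14 to 16 were high and breast 17 to 19 low, and melanoma 1 was above the latter. Gzmb, the killer cell protease granzyme B, was at 5.59, 0, 0.0784, 0, 0.185 and 0 CPM in melanoma and 16.2, 15.7, 22.7, 7.65, 10.8 and 11.1 in breast libraries (log2 fold change -3.76 ± 1.05, adjusted p = 0.0101). Pdcd1, the inhibitory receptor PD-1, was at 0.0929, 0.28 and 2.87 and 8.5, 10.8 and 20 CPM (log2 fold change -4.11 ± 0.62, adjusted p = 3.4e-05), without overlap and without the split seen within the breast libraries for Cd8a. Of 17 checkpoint genes 14 were lower in melanoma (12 without the 3 libraries poor in long transcripts). The PD-1 ligand gene Cd274 was at 4.21, 5.43 and 25.2 and 28.5, 42.6 and 56.5 CPM (log2 fold change -2.20 ± 0.61, adjusted p = 0.00964), and Havcr2, a receptor of exhausted T cells and myeloid cells, at 2.69, 3.83 and 5.81 and 19.11, 29.6 and 37.7 CPM (log2 fold change -2.93 ± 0.24, adjusted p = 2.1e-08). Pax5, a B cell transcription factor, was at 0.235 to 1.09 and 6.96 to 25.3 CPM (-4.72), while the other tested B cell genes differed by less, Cd79b by -1.70 and Blnk by -0.87.

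Most inflammatory ligands were lower in melanoma. All 17 tested cytokines and inflammatory enzymes were lower (median -2.72). Il1b, the cytokine interleukin-1 beta, was at 0.235, 0.557 and 1.18 CPM in melanoma and 55, 66.4 and 83.4 in breast libraries (log2 fold change -6.66 ± 0.74, adjusted p = 8.6e-07). Tnf was at 0.165, 0.257 and 0.956 and 3.39, 5.17 and 6.36 CPM (log2 fold change -3.73 ± 0.53, adjusted p = 1.9e-05), and Nos2, the inducible nitric oxide synthase, at 0.278, 0.955 and 1.4 and 2.87, 11.6 and 23.2 CPM (log2 fold change -3.81 ± 0.69, adjusted p = 2.4e-04). No melanoma library reached the breast range for any of the 3. Il6 was lower too, at 0, 0.152 and 0.234 and 0.315, 0.911 and 1.82 CPM (log2 fold change -2.65 ± 0.77, adjusted p = 0.0124), though not called without the 3 libraries poor in long transcripts (adjusted p = 0.064). Of the CC chemokines 9 of 12 were lower, such as Ccl2, which recruits monocytes, at 0.742, 2.03 and 9.56 and 88.8, 144 and 249.6 CPM (log2 fold change -5.43 ± 0.70, adjusted p = 5.5e-06). Of 12 CXC and CX3C chemokines 8 were lower. Cxcl1 was at 0, 0.134 and 0.47 and 26.8, 40.5 and 107 CPM (log2 fold change -7.99 ± 0.83, adjusted p = 3.9e-07) and Cxcl2 at 0, 0.0805 and 0.186 and 17.4, 27.2 and 61 (log2 fold change -8.46 ± 0.97, adjusted p = 1.3e-06). Cxcl12, a chemokine of vessels and stroma, overlapped between models (17.7 to 64.5 against 23.2 to 45.9 CPM, adjusted p = 0.281).

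The signalling and sensing genes beside these ligands had the same direction. Of 17 NF-kB subunits and inhibitors 12 were lower, with Nfkbia, the inhibitor that NF-kB itself induces, at 17.3, 18.5 and 31.7 and 97.1, 148 and 192 CPM (log2 fold change -2.75 ± 0.22, adjusted p = 1.6e-08) and the subunit Nfkb2 at 10.4 to 24.6 against 67.4 to 118 (-2.46). Of 13 Toll-like receptor genes 9 were lower, led by the endotoxin co-receptor Cd14 (2.94 to 3.43 against 27.3 to 56.9 CPM, -3.77). In the complement list 12 of 14 were lower: C3, the central component, was at 0.784, 3.6 and 16.2 and 25.9, 71.6 and 118 CPM (log2 fold change -3.72 ± 0.59, adjusted p = 5.6e-05), and C1qc, a chain of the C1q recognition protein, at 34.7 to 79 against 198 to 339.6 (-2.37). The groups did not overlap for any of these 5 genes. S100a6, a calcium-binding protein made by many cell types, carried one of the widest gaps at a high level, 11.5, 15.3 and 24 against 318, 561 and 1232 CPM (log2 fold change -5.25 ± 0.38, adjusted p = 4.7e-09).

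**Figure D3:**
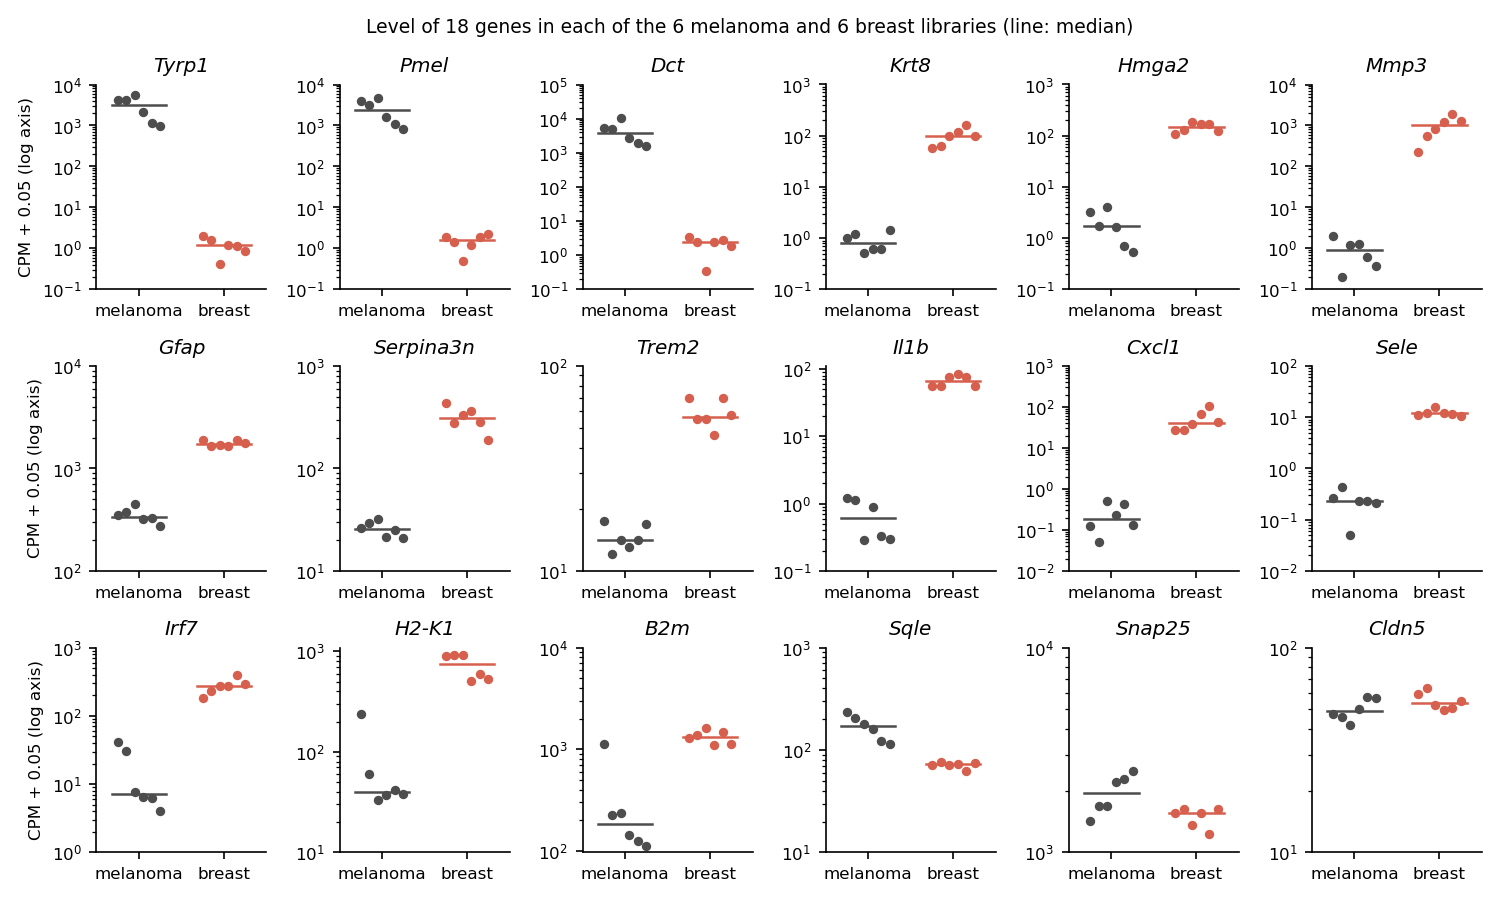
CPM plus 0.05, on a log axis, of 18 genes in each library, dark for the 6 melanoma and red for the 6 breast libraries in library order, with the median as a line. The groups are apart for 15 genes, while B2m, Snap25 and Cldn5 overlap. Melanoma 1 lies apart from the other 5 melanoma libraries for H2-K1 and B2m.

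Type I interferon response genes were lower in melanoma in 30 of 32 tested (median -2.53), against 19.03% of all genes. Irf7, the factor that amplifies interferon production, was at 3.96, 7.05 and 41.8 CPM in melanoma and 182, 276 and 398 in breast libraries (log2 fold change -4.09 ± 0.58, adjusted p = 1.8e-05). Isg15, a ubiquitin-like modifier, was at 2.97, 11 and 67.6 and 88.8, 165 and 330.3 CPM (log2 fold change -3.12 ± 0.65, adjusted p = 0.00102). Rsad2, the antiviral protein viperin, was at 7.23, 10.6 and 102 and 72.4, 171 and 286 CPM (log2 fold change -2.65 ± 0.60, adjusted p = 0.00192), and its groups overlapped through melanoma 1. Of 12 members of the Ifi200 family of nucleic acid sensors 11 were lower (median -4.23), for example Aim2, the DNA sensor of an inflammasome (1.95 to 4.26 against 26.8 to 67.4 CPM, -3.84). Of the 4 interferon receptor genes, Ifngr1 (-1.12) and Ifnar2 (-0.82) were lower, and Ifnar1 (adjusted p = 0.507) and Ifngr2 (adjusted p = 0.848) were not called.

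Interferon response genes carry a response element bound by the Stat and Irf factors. Its letters GAAANNGAAA, searched on both strands of the same 250 bases, stood in 974 of the 32817 promoters (2.97%) and in 11 of the 22 tested type I response genes with an entry. Oas3, a sensor of double-stranded RNA, and Trim30a, a ubiquitin ligase family member, were the 2 called members with a match and the smallest p. The 150 bases before each start are shown with the match in capitals, Oas3 from chr5:120777660-120777809 and Trim30a from chr7:104465194-104465343, both on the minus strand of GRCm38.p6 and printed in the direction of the gene, with the Trim30a match lying on the opposite strand.
Oas3: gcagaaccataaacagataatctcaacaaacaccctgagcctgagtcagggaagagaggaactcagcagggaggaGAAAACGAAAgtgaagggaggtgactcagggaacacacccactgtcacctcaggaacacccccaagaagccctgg
Trim30a: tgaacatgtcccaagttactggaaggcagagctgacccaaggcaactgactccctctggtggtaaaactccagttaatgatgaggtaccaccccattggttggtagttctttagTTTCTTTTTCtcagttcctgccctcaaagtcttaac
Oas3 was at 0.157, 0.371 and 5.66 CPM in melanoma and 29.9, 48.8 and 67.6 in breast libraries (log2 fold change -5.16 ± 0.68, adjusted p = 7.3e-06), and Trim30a at 9.08, 16.4 and 41.9 and 86.2, 114 and 141 CPM (log2 fold change -2.48 ± 0.36, adjusted p = 2.2e-05). The match says nothing of which factor bound in these tissues.

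Antigen presentation genes were lower too, and here 1 melanoma library decided several calls. Of 20 MHC class I genes 15 were lower (median -2.07). H2-K1, which presents peptides to killer T cells, stood at 235, 60, 33.3, 37.3, 41.6 and 38.4 CPM in melanoma 1 to 6 and 897, 922, 907, 512, 589 and 531 in breast 14 to 19 (log2 fold change -3.29 ± 0.55, adjusted p = 1.1e-04). H2-D1, a second such molecule, was at 61.6, 91.7 and 603 and 1363, 1517 and 1953 CPM (log2 fold change -3.23 ± 0.58, adjusted p = 2.2e-04). B2m, the shared light chain, was at 111, 186 and 1117 and 1102, 1327 and 1614 CPM (log2 fold change -2.02 ± 0.53, adjusted p = 0.00652). Melanoma 1 held the highest melanoma value of all 3 and reached the lowest breast library for B2m only. Of 10 class II genes 3 were lower, namely the accessory chains H2-Oa, H2-Ob and H2-DMb2. Cd74, the invariant chain, was at 393, 12.1, 7.05, 10.2, 9.36 and 8.01 CPM in melanoma 1 to 6 and 377, 357, 273, 48.2, 65.4 and 63.9 in breast 14 to 19, and H2-Aa, a class II chain, at 158, 5.46, 3.06, 5.3, 4.17 and 3.22 and 166, 167, 117, 25, 48.8 and 41.9. Neither was called (adjusted p = 0.302 and 0.214). Melanoma 1 was above all 6 breast libraries for Cd74 and above breast 16 to 19 for H2-Aa, and breast 14 to 16 were above breast 17 to 19.

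Without melanoma 1, 19 of 20 class I, 10 of 10 class II, 32 of 32 type I and 13 of 13 interferon gamma genes were lower, against 15, 3, 30 and 6 with it. The summed class II level was 897 CPM in melanoma 1, 27.7 to 38.2 in the other 5 melanoma libraries and 159 to 964 in the breast libraries. For the interferon gamma list the same sums were 1533, 61.2 to 196 and 905 to 1873 CPM. The T and NK cell sum moved with them, at 66.4 CPM in melanoma 1, 16.8 to 22.4 in the other 5 and 60.9 to 145 in breast libraries, and its part in these values was not tested. Neutrophil genes did not share this pattern, with a sum of 8.38 CPM in melanoma 1 inside the 6.19 to 10.6 of its group. Without the 3 libraries poor in long transcripts the class I count was 11, the type I interferon count 27 and the interferon gamma count 4.

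**Figure D4:**
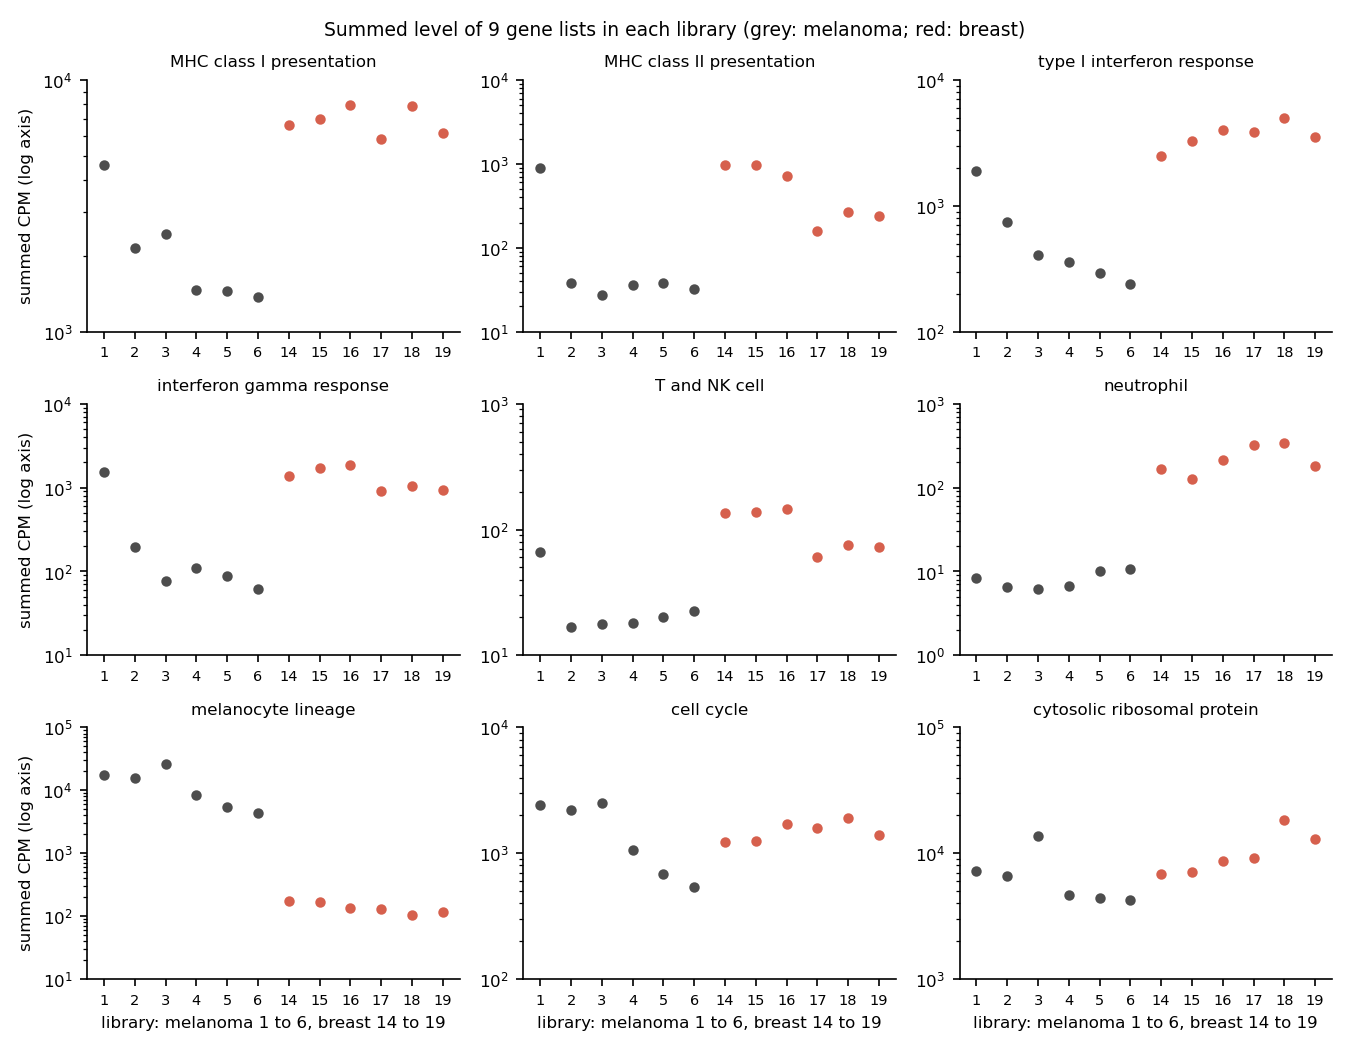
Summed CPM of 9 lists in each library on a log axis, melanoma 1 to 6 in grey and breast 14 to 19 in red. Melanoma 1 stands at breast level for class II (897 CPM) and the interferon gamma response (1533 CPM), whereas all 6 melanoma libraries stand below breast for neutrophil genes.

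Most leukocyte adhesion genes were lower in melanoma, and most barrier genes of the vessel wall were not called. Sele, the endothelial adhesion molecule E-selectin, was at 0, 0.186 and 0.39 CPM in melanoma and 10.6, 11.9 and 15.8 in breast libraries (log2 fold change -5.93 ± 0.30, adjusted p = 6.0e-11). Icam1, the ligand of leukocyte integrins, was at 3.35, 3.76 and 8.9 and 39.9, 55.7 and 76 CPM (log2 fold change -3.53 ± 0.31, adjusted p = 5.9e-08). The groups did not overlap for either. In the adhesion list 8 of 12 genes were lower in melanoma, among them the leukocyte integrin genes Itgal, Itgb2 and Itgb7, which are not vessel genes. Of 18 blood-brain barrier genes 3 were lower and the rest were not called (median -0.11), with 1 higher without the 3 libraries poor in long transcripts. The 3 were Cdh5, the endothelial cadherin (7.99 to 18.9 against 44.8 to 83.2 CPM, -1.96), Slc2a1, the glucose transporter of brain vessels (87.4 to 108 against 164 to 232, -0.98), and Ocln, a tight junction protein (-0.48; adjusted p = 0.0747 without the 3 libraries poor in long transcripts and 0.0517 without breast 18). Cldn5, the main tight junction claudin, overlapped between the models (41.7, 48.7 and 57.3 against 49.5, 53.7 and 63.6 CPM, adjusted p = 0.28). Of 20 angiogenic genes 2 were higher in melanoma and 3 lower (median -0.19), near the 28.8% of all genes called. Without the 3 libraries poor in long transcripts, 3 were higher and 4 lower, beside 14.9% and 19.16% of all genes. With all libraries the higher ones were Vegfa, the main vessel growth factor (73.2 to 96.8 against 42.2 to 69 CPM, 0.69), and the tip cell gene Esm1 (2.15). The vessel peptide Adm was among the lower ones (2.15 to 3.13 against 17.2 to 51.7, -3.60).

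Matrix-degrading enzymes held some of the widest gaps. Mmp3, the metalloproteinase stromelysin, was at 1.99, 0.156, 1.18, 1.21, 0.556 and 0.33 CPM in melanoma 1 to 6 and 222, 564, 809, 1200, 1939 and 1288 in breast 14 to 19 (log2 fold change -10.09 ± 0.64, adjusted p = 8.4e-10). Its breast values spread over several-fold while staying far above every melanoma library. The gene next to it in the family, Mmp10, was at 0, 0.0413 and 0.156 and 25.6, 45.8 and 76.3 CPM (log2 fold change -9.53 ± 0.42, adjusted p = 1.3e-11), and Mmp1a had 0 reads in melanoma and 4.41, 20.2 and 45.4 CPM in breast libraries (at least 483-fold higher). Of 22 genes of the metalloproteinase and plasmin list 14 were lower in melanoma. Of basement membrane genes, which formed no list, a pair picked by their values were Lamb1, a laminin chain, at 7.37, 20.8 and 22.5 and 203, 256 and 401 CPM (log2 fold change -3.97 ± 0.25, adjusted p = 7.8e-10) and Nid1, a laminin-binding linker, at 10.6 to 22.2 against 146 to 316 (-3.61). Among 23 fibroblast and collagen genes 8 were lower, against 19.03% of all genes. They included Thbs1, a thrombospondin (-3.97), and Tnc, a matrix glycoprotein of injured tissue (-3.25). Col1a1, the main fibrillar collagen chain, overlapped (4.23, 14.4 and 19.7 against 6.29, 10.9 and 25.4 CPM, adjusted p = 0.995), and Fbln1 was higher in melanoma (26.9 to 77.4 against 10.6 to 18.98, 1.67). Of 17 integrin genes 9 were lower, with the smallest p for Itga6, a laminin receptor chain (-1.88), and the largest fall for Itga2, a collagen receptor chain (-4.63), and 2 were higher, Itga4 and Itga9 (30.4 to 68.5 against 5.45 to 16.1 CPM, 2.23). Fbln1 and Itga9 were higher in melanoma libraries 1 to 3 than in 4 to 6, as for the pigment genes. In the TGF-beta and BMP list 9 of 21 were lower, against 19.03% of all genes. The target gene Tgfbi was at 5.12, 6.59 and 26 and 93.9, 138 and 181 CPM (log2 fold change -3.79 ± 0.41, adjusted p = 6.5e-07).

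With all libraries few neuronal genes were called, and here the libraries poor in long transcripts mattered. None of the 9 pan-neuronal and none of the 17 glutamatergic genes was called, although the medians were 0.33 and 0.44, above the 0.04 of all genes. At an unadjusted p under 0.05, 1 and 3 of them passed, against 6309 of all 16509 genes, and DESeq2 called 1 and 3. Slc17a7, the vesicular glutamate transporter of cortical neurons, was at 423, 729 and 957 CPM in melanoma and 300.2, 572 and 649 in breast libraries (adjusted p = 0.11). Gad1, the enzyme that makes GABA, was at 153, 335 and 480.2 and 169.9, 229.9 and 280.4 CPM (adjusted p = 0.1). Both overlapped between the models. Without the 3 libraries poor in long transcripts, 4 pan-neuronal, 2 glutamatergic, 8 of 19 GABAergic and 7 of 16 synaptic vesicle genes were higher in melanoma, against 0, 0, 1 and 2 with them, and none was lower. Of all genes tested, 14.9% were higher in the fit without those 3 libraries. Without melanoma 1, 1 pan-neuronal and 2 glutamatergic genes were higher. Snap25 was called in both fits (log2 fold change 0.39 ± 0.13, adjusted p = 0.0325 with all libraries), but not without breast 16 (adjusted p = 0.0702), with the slope on transcript length as a covariate (0.0625) or in a fit of the 12 libraries alone (0.0839). Among markers of brain regions, 1 of 9 cortical genes (Rorb, a transcription factor of the middle layers, -1.17) and 1 of 8 hypothalamic genes (Hdc, the histamine-forming enzyme, -2.08) were lower, and 1 of 4 brain stem genes (Tph2, the first enzyme of neuronal serotonin synthesis, 1.11) was higher. The Tph2 call was lost without melanoma 2, melanoma 3, breast 15, breast 16 or breast 17, with an adjusted p of 0.059 to 0.0789 in edgeR. In the fit that leaves out the 3 libraries poor in long transcripts, 2 hippocampal and 3 hypothalamic genes were higher. With all libraries none was called in the 8 hippocampal, 8 striatal, 8 thalamic, 4 cerebellar and 6 olfactory bulb genes, of which 1, 0, 0, 0 and 1 had an edgeR p under 0.05 before adjustment and DESeq2 called 0 in each list. Myelin genes did not separate the models either: 1 of 15 was lower, and Mbp was at 1810.5, 2025 and 2534 and 1554, 2392 and 3675 CPM (adjusted p = 0.522).

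Immediate early genes, which neurons and other cells switch on within minutes of a stimulus, were lower in 7 of 17 and higher in 1. Fos was lower in melanoma (7.84, 10.5 and 25.2 against 18, 24.2 and 41.1 CPM, log2 fold change -1.03 ± 0.27, adjusted p = 0.00586), as was Junb (23.5, 27.5 and 52 against 110.2, 143 and 167 CPM, log2 fold change -2.21 ± 0.20, adjusted p = 7.9e-08). The groups overlapped for Fos and not for Junb. Egr1 (24.4, 90.4 and 175 against 43.9, 82 and 136 CPM, adjusted p = 0.833) and Arc (16.2, 43 and 165 against 38.2, 74.4 and 112, adjusted p = 0.65), which report on synaptic activity, were not called and overlapped widely. Nr4a3, a nuclear receptor of the same class, was higher (41.3, 60.1 and 90.4 against 6.57, 13.9 and 29.5 CPM, log2 fold change 2.02 ± 0.32, adjusted p = 7.0e-05).

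Cholesterol synthesis was the metabolic list most uniformly higher in melanoma, with 16 of 17 genes called against 9.76% of all genes (median 0.91). Sqle, the squalene epoxidase, was at 115, 170 and 233 CPM in melanoma and 62.4, 72.7 and 77 in breast libraries (log2 fold change 1.23 ± 0.15, adjusted p = 1.8e-06). Dhcr7, a sterol reductase late in the pathway, was at 52.8, 68.5 and 114 and 27.1, 32.9 and 36.7 CPM (log2 fold change 1.27 ± 0.16, adjusted p = 4.7e-06). Every melanoma library was above every breast library for both, and 9 of the 17 members had no overlap, against 16.9% of all genes. Sqle was at 233, 204, 178, 162, 121 and 115 CPM in melanoma 1 to 6, with libraries 1 to 3 above 4 to 6, as for the pigment genes. Dhcr7 had nearly this order, with library 4 (68.8 CPM) just above library 3 (68.2 CPM). The part of tumour RNA in these values was not tested. Without the 3 libraries poor in long transcripts all 17 were higher. Sums of the list were 1773 to 2844 CPM in melanoma and 1197 to 1337 in breast libraries. Acly, which supplies the acetyl-CoA for lipid synthesis, was higher as well (322 to 507 against 149.8 to 230.1 CPM, 1.00), and 3 of 11 fatty acid genes were higher (5 without the 3 libraries poor in long transcripts, 2 without melanoma 1). Of 13 glycolysis genes 7 were higher (5 without melanoma 1), and the lactate exporter Slc16a3 was lower (24.4 to 82.4 against 114 to 196, -1.71).

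Hypoxia genes split by member. Egln3, an oxygen-sensing hydroxylase, was at 5.48, 9.46 and 10.7 CPM in melanoma and 35.7, 59.6 and 71.7 in breast libraries (log2 fold change -2.64 ± 0.21, adjusted p = 1.3e-08). Car9, the carbonic anhydrase of hypoxic tumour cells, was at 3.8, 7.17 and 13.6 and 1.26, 1.91 and 2.44 CPM (log2 fold change 2.09 ± 0.35, adjusted p = 1.1e-04). The groups were apart in opposite directions, and 3 of 12 members were higher and 6 lower. Within melanoma, Car9 was higher in libraries 1 to 3 than in 4 to 6, as the pigment genes were, while Egln3 was lower in them. Of 10 iron genes 5 were lower and 2 higher, Tfrc, the transferrin receptor (0.81), and Slc11a2, an iron transporter (0.47). The lower ones included Hmox1, the haem-degrading oxygenase, at 11.9, 30 and 73.3 and 196, 325 and 387 CPM (log2 fold change -3.19 ± 0.47, adjusted p = 2.5e-05) and Fth1, the ferritin heavy chain, at 1626, 1865 and 2646 and 3245, 3616 and 5035 CPM (log2 fold change -0.99 ± 0.15, adjusted p = 3.1e-05).

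The calls were spread unevenly over the chromosomes. On chromosome 19, 178 of 571 tested genes (31.2%) were lower in melanoma and 31 (5.43%) higher, and on chromosome 8 the shares were 27.7% and 4.07%. On chromosome 12, 80 of 633 (12.6%) were lower and 98 (15.5%) higher, and with all libraries no other autosome had more higher than lower calls. When the 3 libraries poor in long transcripts were left out, higher calls outnumbered lower ones on chromosomes 1, 2, 6, 9, 12, 15 and 17. The median log2 fold change of all tested genes ran from -0.18 on chromosome 19 and -0.13 on chromosome 8 to 0.14 on chromosome 15 and 0.14 on chromosome 12. Without the 3 libraries poor in long transcripts the medians were -0.14 and -0.07 on chromosomes 19 and 8, and 0.17 and 0.20 on chromosomes 15 and 12. The differences between chromosomes were not tested, since genes of 1 chromosome are not independent.

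**Figure D5:**
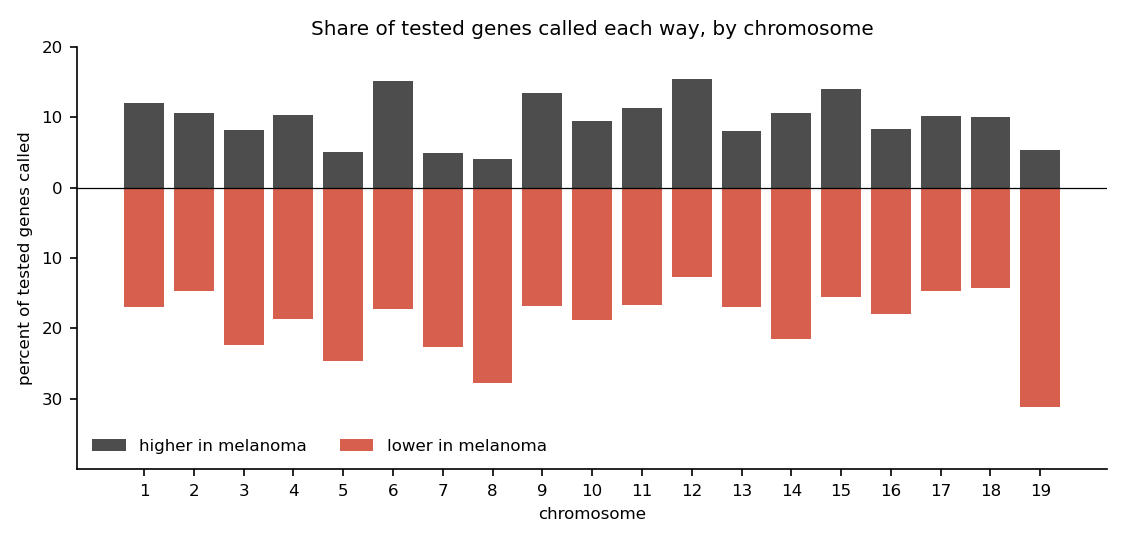
Percent of tested genes called higher (dark, upward) and lower (red, downward) in melanoma on each autosome. Lower calls reach 31.2% on chromosome 19 and 12.6% on chromosome 12.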

How the data were processed

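RNA-seq of dissected mouse brain gave raw gene counts for 18 libraries. Per the labels' protocols, polyA RNA from 1 µg total RNA was made into strand-specific libraries. Per the submitters' processing notes the build was GRCm39; aligner, counter and strand setting are not given in the sources used here. Counts were taken as the authors deposited them. Gene IDs were matched to GENCODE M21 for symbols and chromosomes; 3281 IDs (0.139% of reads) had no match, and these, scaffold genes and 3965 genes on X or Y were left out of the description, not of the fit. edgeR 4.0.16 (R 4.3.3) ran TMM, filterByExpr, a robust quasi-likelihood fit of all 18 libraries with 1 coefficient per model, and Benjamini-Hochberg adjustment over 17174 genes. Errors after ± are standard errors. The fit was first tested on simulated counts. DESeq2 1.42.0 and limma 3.58.1 were alternatives. Depth was 7366250 to 13544054 reads; p-values rest on 6 brains a model, and intervals cover counting error only. Levels compare libraries for 1 gene, not genes, since CPM is not per length. The named genes were, of genes off X and Y, the 8 largest called changes each way without overlap and at 1 CPM or more, the 6 largest CPM differences, the 3 called members of each list with the smallest p (or 2 most abundant of a list with none), members against a list's majority, and a few set markers; 36 more were added. Some genes selected in this way are not reported here. Members, lists and rule were chosen with earlier results of these data known.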

Additional observations from a re-analysis of the deposited data

Results flagged for a closer look

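In 53 of the 444 groups of 6 values examined (the described genes and the lists, in each model), 1 library lay further from the other 5 than Dixon's 95% limit for the gap over the range, a limit that chance passes in about 1 group in 20.

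Melanoma 1 held 28 of the 53. Its antigen presentation genes were high: B2m at 1117 CPM, against 111 to 235 in the other melanoma libraries, H2-D1 at 603 (61.6 to 112), H2-K1 at 235 (33.3 to 60.0), Cd74 at 393 (7.05 to 12.1) and H2-Aa at 158 (3.06 to 5.46). Killer T cell and checkpoint genes followed, with Cd8a at 3.82 CPM (0 to 0.156), Gzmb at 5.59 (0 to 0.185), Pdcd1 at 2.87 (0.0929 to 0.313) and Cd274 at 25.2 (4.21 to 10.1). Interferon genes were Rsad2 at 102 CPM (7.23 to 27.7) and Oas3 at 5.66 (0.157 to 1.01). Myeloid and complement genes were Cd68 at 20.1 CPM (8.62 to 12.5), Ms4a7 at 5.66 (0.743 to 1.88), C1qc at 79.0 (34.7 to 48.4) and C3 at 16.2 (0.783 to 4.63). Tnf stood at 0.956 CPM (0.165 to 0.312), Stat3 at 159 (54.0 to 91.3) and Tgfbi at 25.9 (5.12 to 9.20). Itga2 was at 1.77 CPM (0.372 to 0.627). Among the list sums of melanoma 1, class I stood at 4607 CPM, class II at 897, type I interferon response at 1898, interferon gamma response at 1533 and the Ifi200 family at 71.0. Its T and NK cell sum was 66.4 CPM, its checkpoint sum 306, its CC chemokine sum 105 and its complement sum 597. All 28 were the highest of the 6 melanoma values.

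Melanoma 3, 1 of the 3 libraries poor in long transcripts, held 13. Sums of short, abundant genes were high in it, with ribosomal proteins at 13700 CPM (4268 to 7221 in the other 5) and the respiratory chain at 10540 (5724 to 7357). The amino acid stress sum was 3548 CPM (904 to 1526) and the glucocorticoid and metallothionein sum 1374 (820 to 865). Fth1 was high at 2646 CPM and Nfkbia at 31.6. The fatty acid synthesis sum was low at 1842 CPM (3403 to 3649), as were the metalloproteinase and plasmin sum at 926 and the Stat3 and interleukin-6 sum at 314. Lamb1 at 7.37 CPM, Cdh5 at 7.99, Itga6 at 26.6 and Hdc at 3.29 (6.16 to 7.05) were low as well.

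Melanoma 4 was high for genes induced by stimulation: Arc at 165 CPM (16.2 to 55.8), Junb at 52.0 (23.6 to 30.1), Fos at 25.2 (7.83 to 12.5) and Dusp5 at 9.76 (4.86 to 6.44). Melanoma 5 was low for the MAP kinase feedback sum at 642 CPM and high for Ereg at 0.0927 CPM, the 1 read of that gene in melanoma. Melanoma 6 was high for Areg at 0.248 CPM, a few reads, and for the olfactory bulb sum at 69.1 CPM (18.2 to 30.8). Breast 18 was high for Ctsb at 2605 CPM, Afp at 120.1 and the cathepsin sum at 8209, and breast 16 for Sele at 15.8 CPM.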

How the results depend on the processing

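The counts of genes higher and lower in melanoma, 1611 and 3142, stayed within 1.5 times under other scaling (DESeq2 size factors 2022 and 2895, upper quartile 2016 and 2915, library totals 1685 and 3050), other filters, the DESeq2 test (2359 and 3089), limma voom (1521 and 3278), a fit of the 12 libraries alone (1174 and 2695), a fit without X and Y, and a cell cycle covariate (2216 and 3767). A test against a 1.5-fold change gave 402 and 1711. Without the 3 libraries poor in long transcripts, 2495 were higher, and with the length slope as covariate 2776; the lower counts were 3206 and 4122. Leaving out each library in turn gave 1379 to 3862 higher and 2652 to 3881 lower, both maxima without melanoma 3; the cause was not tested. Of the 130 called genes of the 145 described, 114 kept their call under every alternative and none reversed under any. Apart from the 1.5-fold test, calls were lost for Il6, Mcm2, Ocln, Phlda1, Snap25, Tph2 and Ttr. No paired analysis was possible because the models share no library number. With 7366250 to 13544054 reads a library, levels well under 1 CPM rest on a handful of reads. Of the list genes, 22 had 0 reads in all 18 libraries, among them Cox4i1, Rpl13, Myd88, Itgam and Irf8, which are widely expressed or expected in these cells, so these say nothing of the tissue.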

Other observations

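Among gene groups not described above, heat shock genes split: Hsp90aa1, a cytosolic chaperone, was at 348, 374 and 458 CPM in melanoma and 205, 244 and 284 in breast libraries (log2 fold change 0.69 ± 0.10, adjusted p = 3.5e-05), and Hspd1, a mitochondrial chaperone, at 185, 267 and 361 and 120.4, 144 and 173 CPM (log2 fold change 0.92 ± 0.15, adjusted p = 1.1e-04). Both were apart between the models, whereas the small heat shock protein Hspb1, which reactive astrocytes make, was lower (0.627 to 2.72 against 6.44 to 12.7 CPM, -2.22). In this list 3 of 12 were higher and 4 lower. Hspd1 was at 347, 361, 304, 230, 210 and 185 CPM in melanoma 1 to 6, with libraries 1 to 3 above 4 to 6, as for the pigment genes. Hsp90aa1 did not keep this order, with library 3 (350 CPM) below library 4 (380 CPM). Of 15 circadian genes 2 were higher and 1 lower, against 28.8% of all genes called. Without the 3 libraries poor in long transcripts 4 were higher and 1 lower, beside 14.9% and 19.16% of all genes. The higher ones included Bhlhe41, a clock repressor, at 90.6, 115 and 214 and 43.9, 59 and 71.7 CPM (log2 fold change 1.23 ± 0.19, adjusted p = 4.1e-05), again without overlap. Its melanoma libraries 1 to 3 were also above 4 to 6, and the part of tumour RNA was not tested. Ttr, the transthyretin of the choroid plexus, was higher in melanoma (361 to 971 against 314 to 632 CPM, log2 fold change 0.73 ± 0.23, adjusted p = 0.0219), with overlapping groups and an adjusted p of 0.0548 without breast 16, and the meningeal enzyme Ptgds was higher too (679 to 1207 against 338 to 713, 0.81). Ptgds was higher in melanoma libraries 1 to 3 than in 4 to 6, as for the pigment genes. The part of tumour RNA in its level was not tested. Of 10 oligodendrocyte precursor genes 8 were not called. Sox6, a factor of these cells, was higher (30.9 to 44.4 against 9.93 to 18.7 CPM, 1.29), while Pdgfra, a receptor of the same cells and of stroma, was lower (19.4 to 65.9 against 119 to 199, -1.73).

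Ptgs2, the inducible cyclooxygenase, was at 4.47, 8.18 and 13.2 CPM in melanoma and 18.6, 20.1 and 29.9 in breast libraries (log2 fold change -1.35 ± 0.22, adjusted p = 8.2e-05). Hdc was at 3.29 to 7.05 and 21.1 to 31.9 CPM (-2.08), and Ereg, a ligand of the EGF receptor family, had 1 read in melanoma against 9.21, 21.7 and 34.5 CPM in breast libraries (ratio 1423, 95% counting interval 255 to 56231). Krt20, a keratin usually found in gut and urothelium, was at 0.0735 to 0.279 and 20.8 to 50.4 CPM (-7.92), and Tbx2, a repressor active in melanocytes, at 30.5 to 113 and 0.682 to 2.68 CPM (5.14). Neither model's libraries reached the other's range for these genes. By gene type, the share of tested genes lower in melanoma was 20.3% of 14175 protein-coding, 16.04% of 449 lincRNA and 6.09% of 427 antisense genes.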
